A study of Saccharomyces cerevisiae with 48 samples.

Results

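The 10 genes described here, MNN1, MNN2, MNN4, MNN5, MNN9, MNN10, OCH1, KTR1, KTR2 and KRE2, encode mannosyltransferases of the yeast Golgi or proteins that act with them. They were chosen by symbol from 6256 genes on the array, and each was measured by 1 probe printed in 2 spots. The samples were total RNA of Saccharomyces cerevisiae, carrying the dye Cy3, on 48 one-colour Agilent arrays. Alpha factor was given to 43 segregants and to the parental lines HS959 and S96, on 45 arrays, while the 3 untreated arrays held segregant SEG8 and the same parental lines. All strains were MATa haploids, and the labels name the cross YJM789 X S96 for parents and segregants alike. Cultures were grown in YPAD to an OD of 0.6 and then incubated at 30 °C for 30 min, with 5 µM alpha factor or without it. Each strain had 1 array per condition and the labels do not describe separate cultures, so the p-values describe the spread among single arrays, which may be technical in part.

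Secreted and cell wall proteins of yeast leave the endoplasmic reticulum with a short N-linked glycan, which the Golgi extends into a long mannan. OCH1 encodes the enzyme that starts the outer chain, complexes that contain Mnn9 and Mnn10 lengthen its backbone, and Mnn2 and Mnn5 add the side branches. Mnn4 promotes the transfer of mannose phosphate to these branches, and Mnn1 caps N-linked and O-linked chains with a terminal mannose. Kre2, Ktr1 and Ktr2 belong to the KTR family of mannosyltransferases, of which Kre2 and Ktr1 are known to extend O-linked chains. Alpha factor is the pheromone of MATalpha cells. It arrests MATa cells in G1 and induces mating genes, and the mating projection that follows needs new cell wall.

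The median deposited intensity of an array was 9804 to 23353, and the share of gene spots well above background was 94.0% to 99.9%. All 10 genes were well above background on 48 of 48 arrays, with no saturated gene spot. The number of arrays limits the precision. A level is the log2 of the intensity after subtracting that array's 75th percentile of log2 intensity. Levels are compared between arrays for 1 gene, never between genes. The treatment showed in FUS1 and FUS2, cell fusion genes, which rose by 3.52 ± 0.22 and 5.26 ± 0.19 (log2 change; SD over 3 strains). It showed also in the G1 cyclin genes CLN1 and CLN2, which fell by 3.35 ± 0.15 and 0.98 ± 0.32. All 7 a-specific marker genes, active in MATa cells, were well above background on 48 arrays, and so were all 5 alpha-specific genes. With alpha factor all 7 a-specific genes and 4 of the 5 alpha-specific genes rose (adjusted p under 0.05 in limma), where 15% of all tested genes did. The part of alpha-specific RNA in the results below was not tested. In these bulk samples, fewer cells of a kind and less RNA per cell cannot be told apart.

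With alpha factor, 6 of the 10 genes fell, 1 rose and 3 did not pass the test. MNN1 fell most and OCH1 next, and MNN2, MNN4, MNN9 and MNN10 fell less. KTR2 was the gene that rose, and MNN5, KTR1 and KRE2 did not pass. Calls are an adjusted p under 0.05 in limma, fitted over 6252 genes on 6 arrays, the treated and untreated ones of S96, HS959 and SEG8, with a term for strain. In that fit 35.6% of all tested genes were called, 20.5% as lower and 15% as higher. The median change was -0.39 over the 10 genes, against -0.04 over all genes tested. The 10 genes and the lists below were chosen with earlier results of these data known. The part of that choice in these contrasts was not tested. Treated and untreated arrays did not overlap for 7 of the 10 genes, and for 32.4% of all genes tested. Leaving strain out of the fit kept 4 calls, those of MNN1, OCH1, MNN2 and KTR2, where 657 of the 6252 genes were called. The fits without HS959 or SEG8 kept 3, those of MNN1, OCH1 and KTR2, where 13.5% and 9.37% of all tested genes were called. Without S96 5 were kept, those of MNN1, OCH1, MNN2, MNN4 and KTR2, where 25.9% of all tested genes were called.

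**Figure D1:**
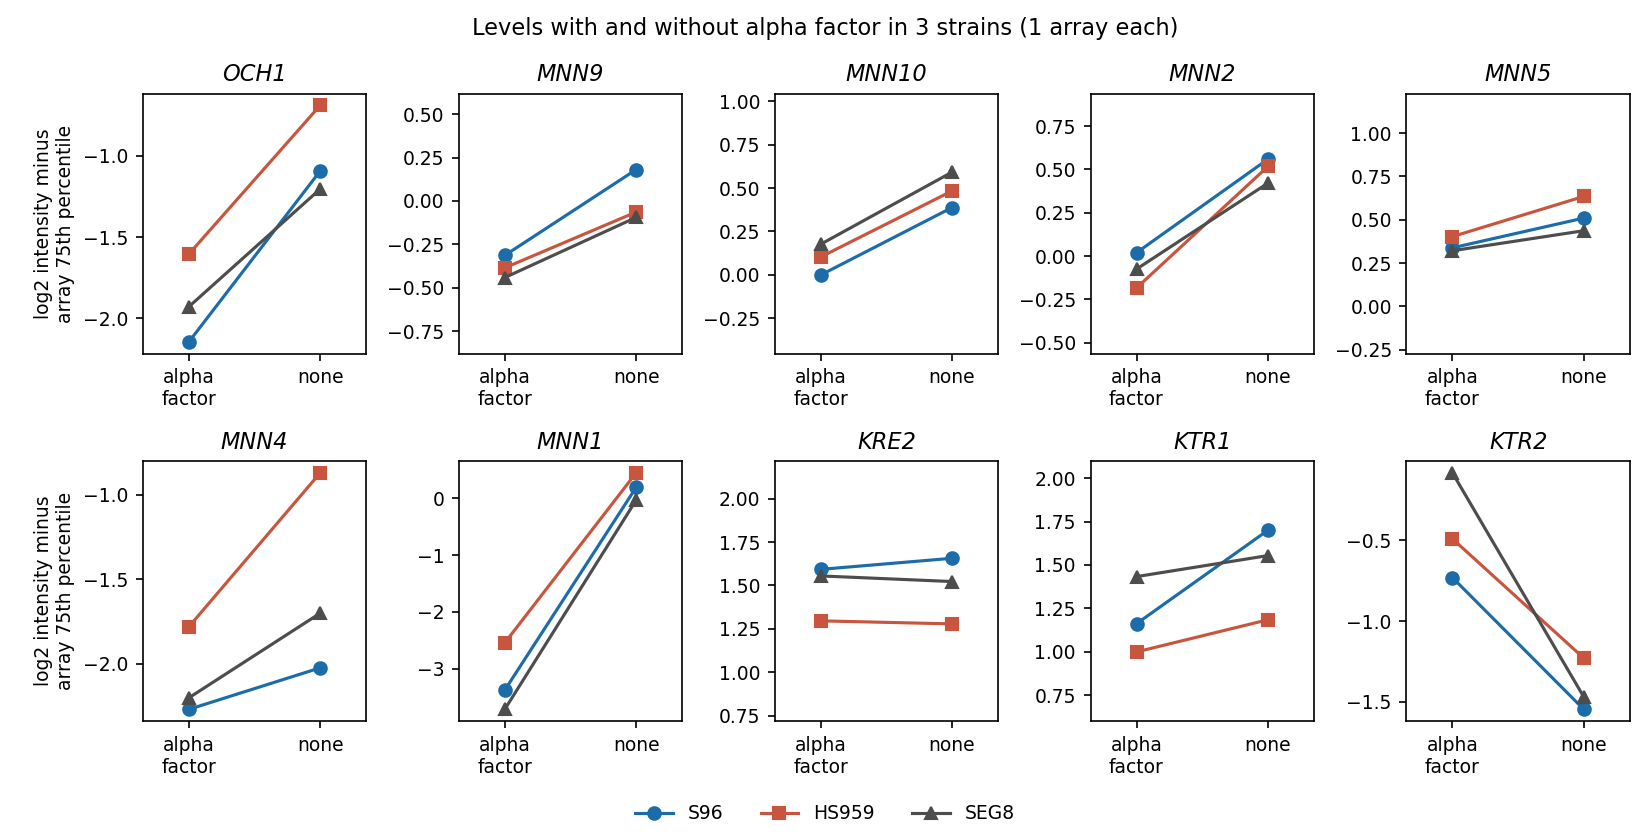
Level of each gene (log2 scale, relative to that array's 75th percentile) with alpha factor on the left and without it on the right, 1 point per array and 1 line per strain. Each panel has its own scale. The 3 lines of MNN1 run between levels of -3.71 to -2.54 with alpha factor and -0.04 to 0.45 without it, and the lines of KTR2 slope the other way.

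OCH1 starts the outer chain. Its level was -2.15 in S96, -1.60 in HS959 and -1.93 in SEG8 with alpha factor, against -1.09 in S96, -0.69 in HS959 and -1.20 in SEG8 without it. Every treated array lay below every untreated one, with HS959 the highest strain in both conditions. The log2 change of OCH1 was -0.90 ± 0.16 over 3 strains (SD), a 1.87-fold decrease with limma adjusted p = 0.00562. The call was kept under every alternative tried.

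The backbone genes fell by like amounts. MNN9, whose product is a subunit of both mannan polymerase complexes, had levels of -0.31 in S96, -0.39 in HS959 and -0.44 in SEG8 with alpha factor, against 0.18 in S96, -0.06 in HS959 and -0.09 in SEG8 without it. MNN10, whose product is a subunit of the second polymerase, had levels of -0.001 in S96, 0.10 in HS959 and 0.18 in SEG8 with alpha factor, against 0.39 in S96, 0.48 in HS959 and 0.59 in SEG8 without it. The groups did not overlap for either gene, and the MNN10 lines ran almost parallel. MNN9 fell by 0.39 ± 0.09 (adjusted p = 0.0257 in limma) and MNN10 by 0.40 ± 0.02 (adjusted p = 0.0194 in limma; SD over strains, n = 3 each). Both calls were lost whenever 1 strain was left out (limma adjusted p = 0.0682 to 0.105 for MNN9 and 0.0502 to 0.102 for MNN10), and without strain in the fit (adjusted p = 0.121 and 0.0993 in limma).

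Among the branching genes, MNN2 fell and MNN5 did not pass. MNN2, which adds the first mannose of a branch, had levels of 0.02 in S96, -0.18 in HS959 and -0.07 in SEG8 with alpha factor, against 0.56 in S96, 0.52 in HS959 and 0.42 in SEG8 without it. It fell by 0.58 ± 0.11 (adjusted p = 0.0108 in limma), and the call was lost without HS959 (limma adjusted p = 0.0665) or without SEG8 (limma adjusted p = 0.0585). MNN5, which adds the next mannose, had levels of 0.34 in S96, 0.40 in HS959 and 0.32 in SEG8 with alpha factor, against 0.51 in S96, 0.63 in HS959 and 0.44 in SEG8 without it. The MNN5 groups did not overlap, and its change was -0.17 with a 95% confidence interval of -0.37 to 0.03 (adjusted p = 0.148 in limma). Whether the changes of MNN2 and MNN5 differ was not tested.

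MNN4, the regulator of mannose phosphorylation, changed unevenly over strains. Its level was -2.27 in S96, -1.78 in HS959 and -2.20 in SEG8 with alpha factor, against -2.02 in S96, -0.87 in HS959 and -1.70 in SEG8 without it. The groups overlapped, since treated HS959 lay above untreated S96. The change was -0.25 in S96, -0.91 in HS959 and -0.50 in SEG8, which gave a fall of 0.55 ± 0.34 with limma adjusted p = 0.0453. The call was lost with quantile scaling (adjusted p = 0.0669 in limma), with median scaling (adjusted p = 0.0514), without strain in the fit (adjusted p = 0.361), without HS959 (adjusted p = 0.147) and without SEG8 (adjusted p = 0.150).

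MNN1, which adds the capping mannose, had levels of -3.38 in S96, -2.54 in HS959 and -3.71 in SEG8 with alpha factor, against 0.19 in S96, 0.45 in HS959 and -0.04 in SEG8 without it. The gap between the groups was wider than the spread within either. MNN1 fell by 3.41 ± 0.37 (SD over strains, n = 3; 95% confidence interval -3.83 to -2.99; adjusted p = 0.000998 in limma), which is 10.6-fold. By size of decrease it ranked 8 of 6252 genes, while OCH1 ranked 305. MNN1 is known as a gene transcribed at the G1/S transition. Of 19 G1/S genes, in a list that leaves MNN1 out, 18 fell and 1 rose. The riser was PCL2, a cyclin gene of the Pho85 kinase, with a change of 2.44. The mean level of the G1/S list was -3.40 to -2.60 in the 43 treated segregants and -2.80 to -2.40 in the 2 treated parents, against -0.55 to -0.48 in the 3 untreated arrays. The mean level of 16 pheromone-induced genes, all of which rose, was 1.79 to 2.34 in the treated segregants and 2.15 to 2.41 in the treated parents, against -2.41 to -1.73 in the untreated arrays. The part of cell cycle position in the change of MNN1 was not tested.

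Of the 3 KTR family genes 1 rose and 2 did not pass. KTR2 had levels of -0.73 in S96, -0.49 in HS959 and -0.08 in SEG8 with alpha factor, against -1.55 in S96, -1.23 in HS959 and -1.47 in SEG8 without it. Every treated array lay above every untreated one, and the change was 0.82 in S96, 0.74 in HS959 and 1.39 in SEG8. KTR2 rose by 0.98 ± 0.35, or 1.97-fold (adjusted p = 0.0126 in limma), a call kept under every alternative tried. KTR1 had levels of 1.16 in S96, 1.00 in HS959 and 1.43 in SEG8 with alpha factor, against 1.70 in S96, 1.18 in HS959 and 1.55 in SEG8 without it. The groups overlapped, and the change was -0.28 with a 95% confidence interval of -0.58 to 0.01 (adjusted p = 0.119 in limma). KRE2, whose product adds a mannose to O-linked chains, had levels of 1.59 in S96, 1.30 in HS959 and 1.55 in SEG8 with alpha factor, against 1.66 in S96, 1.28 in HS959 and 1.52 in SEG8 without it. Its change was -0.005 with a 95% confidence interval of -0.20 to 0.20 (adjusted p = 0.965 in limma), which leaves room for changes of up to that size in either direction.

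**Figure D2:**
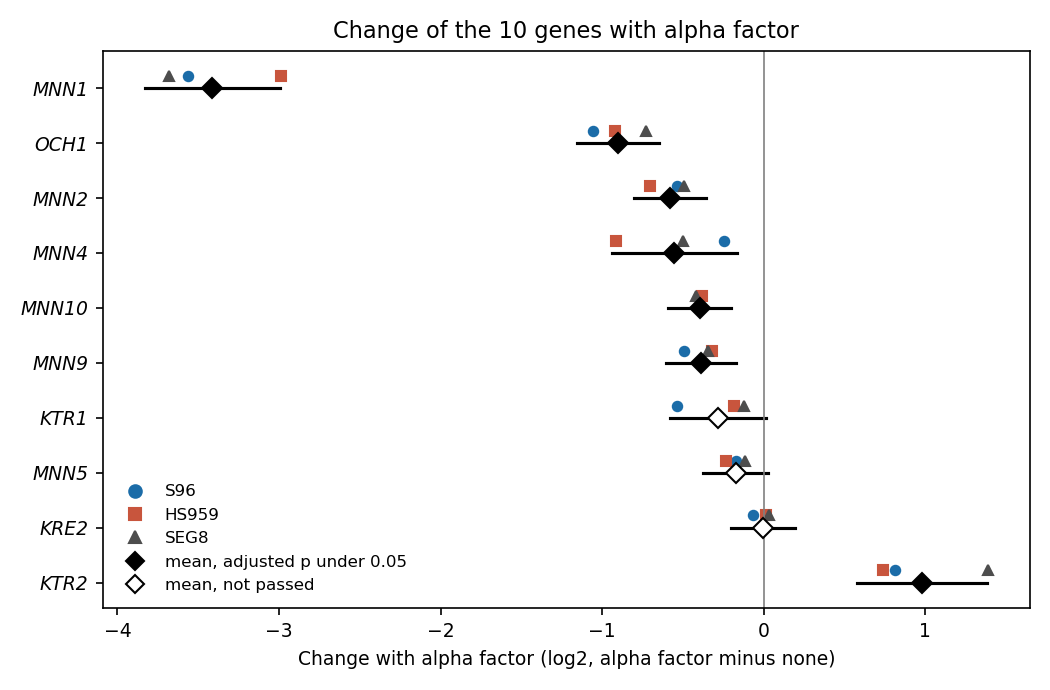
Change with alpha factor of each gene (log2, alpha factor minus none), as the mean over 3 strains with its 95% confidence interval from limma and, just above it, the change in each strain. Filled diamonds passed an adjusted p of 0.05. MNN1 stands at -3.41, the 5 other genes that fell lie between -0.90 and -0.39, and KTR2 stands at 0.98.

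Other genes of the glycosylation pathway were counted in the same fit, in which 35.6% of all genes were called. A list of 15 genes, called relatives below, held polymerase subunits and KTR family genes, with others such as MNT4 and GNT1 that are neither. Of these 15 genes 6 fell, 1 rose and 8 did not pass, with a median change of -0.13. The riser was MNT4, a member of the MNN1 family, which rose by 1.95 ± 0.17 (adjusted p = 0.00125 in limma; SD over strains, n = 3). The KTR family gene KTR5 fell by 0.72 ± 0.08 and MNN11, whose product sits with Mnn10 in the second polymerase, by 0.70 ± 0.18. GNT1, which encodes a Golgi N-acetylglucosamine transferase, fell by 0.41 ± 0.07. The other subunits of the polymerases differed in outcome, with a fall of 0.38 for HOC1 and changes of -0.15 for ANP1 and 0.08 for VAN1, which did not pass. ANP1 and VAN1 were named here after their values were seen.

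Of 10 genes that supply the mannose donor and carry sugars and ions into the Golgi, 5 fell, 1 rose and 4 did not pass, with a median of -0.27. VRG4, the carrier of GDP-mannose into the Golgi, fell by 1.09 ± 0.11 (adjusted p = 0.00269 in limma), and its close relative HVG1 rose by 0.64 ± 0.42 (adjusted p = 0.0484 in limma; SD over strains, n = 3 each). The change of HVG1 was 0.37 in S96, 0.42 in HS959 and 1.12 in SEG8. Its call was lost without strain in the fit and with any 1 strain left out. PMI40, the phosphomannose isomerase at the entry to donor synthesis, fell by 0.73 ± 0.13, and the Golgi ion transporter gene GDT1 fell by 0.53 ± 0.01. The remaining decreases were of GDA1 (0.46), the Golgi GDPase gene, and SEC53 (0.31), the phosphomannomutase gene, both named after their values were seen.

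In the endoplasmic reticulum, 10 of 30 genes that build the lipid-linked oligosaccharide, transfer it to protein or trim the transferred glycan fell, 3 rose and 17 did not pass, with a median of -0.18. ALG7, the first enzyme of the lipid-linked route, fell by 0.94 ± 0.06, and the mannosyltransferase gene ALG3 fell by 1.07 ± 0.30. ALG14 and ALG13 encode the subunits of 1 sugar transferase. ALG14 fell by 1.21 ± 0.29 (adjusted p = 0.00573 in limma), and ALG13 rose by 0.92 ± 0.09 (adjusted p = 0.00375 in limma; SD over strains, n = 3 each). The other risers were DIE2 (0.51) and OST2 (0.48), named after their values were seen.

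Of 7 protein O-mannosyltransferases, which attach the first mannose of O-linked chains, 4 fell, 1 rose and 2 did not pass, with a median of -0.37. PMT5 fell by 0.89 ± 0.13, PMT3 by 0.76 ± 0.35 and PMT7 by 0.63 ± 0.15, while PMT6 rose by 0.38 ± 0.15 (SD over strains, n = 3 each). PMT4, named after its values were seen, fell by 0.34. Of 12 genes for Golgi retention and vesicle tethering, 2 fell, 2 rose and 8 did not pass, with a median of 0.03. COG1 and COG4, subunits of the COG tethering complex, rose by 1.14 ± 0.13 and 0.39 ± 0.20, while COG2 of the same complex fell by 0.32 ± 0.10 and ERD1, a gene for Golgi retention, fell by 0.63 ± 0.07. These counts rest on few arrays, and the calls over all genes dropped as well. Without SEG8, where 9.37% of all tested genes were called, the counts were 1 lower and 1 higher of 15 relatives, 1 lower of 10 donor genes, 4 lower and 1 higher of 30 endoplasmic reticulum genes, 2 lower of 7 O-mannosyltransferases and 1 higher of 12 retention genes. Without HS959, where 13.5% of all tested genes were called, they were 2 lower and 1 higher, 2 lower, 4 lower and 1 higher, 1 lower, and 1 lower and 1 higher, in the same order.

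**Figure D3:**
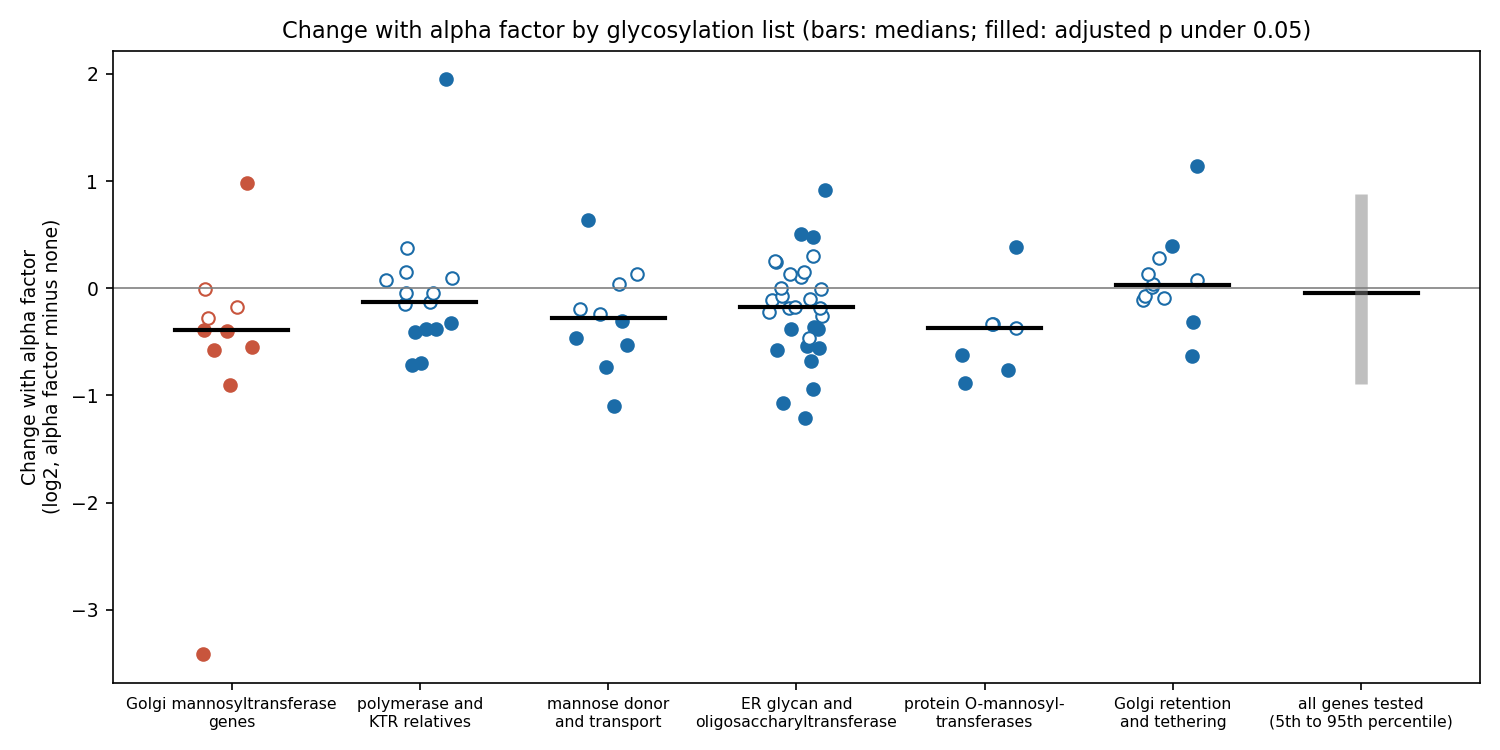
Change with alpha factor (log2, mean over 3 strains) of each gene, by glycosylation list, with filled points for an adjusted p under 0.05 in limma and a bar at each median. The grey bar spans the 5th to 95th percentile of all genes tested, -0.89 to 0.88. MNN1 at -3.41 lies lower than any other gene drawn, and MNT4 at 1.95 higher.

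Between the parents, MNN4 was the 1 gene of the 10 that passed, where 20.7% of all tested genes did. MNN4 was higher in HS959 by 0.82 (95% confidence interval 0.35 to 1.30; adjusted p = 0.0407 in limma, 2 arrays per parent), or 1.77-fold. The difference was 0.49 with alpha factor and 1.15 without it. The call was lost without the SEG8 arrays, which add to the estimate of spread (adjusted p = 0.0924 in limma). OCH1 was higher in HS959 by 0.47, with adjusted p = 0.0545 in limma. It passed with quantile scaling (0.55, adjusted p = 0.0406 in limma) and with median scaling (0.51, adjusted p = 0.0405). With normexp background (0.38, adjusted p = 0.0832 in limma) and without the SEG8 arrays (adjusted p = 0.0825) OCH1 did not pass. Quantile scaling also moved the median parental difference of all genes to 0.04, against -0.09 in the main scaling, and the calls to 706 higher and 608 lower in HS959, against 421 higher and 871 lower.

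The other parental differences did not pass. MNN1 was 0.54 higher in HS959 (adjusted p = 0.112 in limma), with 0.83 on treated and 0.26 on untreated arrays. KRE2 and KTR1 were both 0.34 lower in HS959 (adjusted p = 0.0672 and 0.144 in limma). The differences of MNN2, MNN5, MNN9, MNN10 and KTR2 lay between -0.16 and 0.28. Since a single probe reads each gene, strain differences in the probed sequence and in RNA level cannot be told apart.

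Over all genes tested, 20.7% passed between the parents, with 871 lower and 421 higher in HS959. With quantile scaling 608 were lower and 706 higher. In the pathway lists, ANP1 was 0.42 higher and HOC1 0.53 lower in HS959, both polymerase subunit genes, and the other 13 relatives did not pass. None of 10 donor genes passed. In the endoplasmic reticulum 6 of 30 were lower in HS959 and 1 was higher. The largest differences were of ROT2, a glucosidase II gene (-1.20), the mannosyltransferase gene ALG11 (-0.93), ALG7 (-0.77) and the oligosaccharyltransferase subunit gene OST6 (-0.67). The 1 higher gene was CAX4 (0.56), a dolichyl pyrophosphate phosphatase gene named after its values were seen. PMT3 (-1.10) and PMT6 (-0.50) were lower of 7 O-mannosyltransferases. SVP26 (-0.55), a receptor that carries Golgi mannosyltransferases out of the endoplasmic reticulum, and COG7 (-0.40) were lower of 12 retention genes.

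The 43 treated segregants gave levels with alpha factor in many genotypes. For MNN1, MNN2, MNN10 and OCH1 all 43 lay below the lowest of the 3 untreated arrays, as they did for 5.77% of all genes tested, and for MNN9 42 of 43 did. For KTR2 all 43 lay above the highest untreated array, as they did for 3.92% of genes. For MNN5 34 of 43 lay below the untreated arrays, for MNN4 24, for KTR1 12 and for KRE2 1. SEG8 is among the 43 and among the untreated arrays, so these counts are not independent of the changes above. No other segregant had an untreated array. The 3 untreated arrays lay on slides 1 and 2 of 6 (8 arrays per slide). Treatment, genotype and slide therefore cannot be fully told apart in these counts.

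Over the segregants MNN1 ran between -3.96 in SEG48 and -1.39 in SEG35, with a median of -3.19. SEG35 stood 0.81 above the next segregant, SEG6, at -2.19. Its mean level of G1/S genes was -2.80, rank 13 of 43 from the top, and of pheromone-induced genes 1.91, rank 41. OCH1 ran between -2.81 and -1.51 with a median of -2.11, and KTR2 between -0.67 and 0.56 with a median of -0.13. MNN4 ran between -3.09 and -1.30 with a median of -2.09, and 15 of its treated segregants lay below both treated parents and 9 above both. This was not particular to MNN4. Every other gene except KTR2, which had 0 below, also had segregants past the parents on either side.

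**Figure D4:**
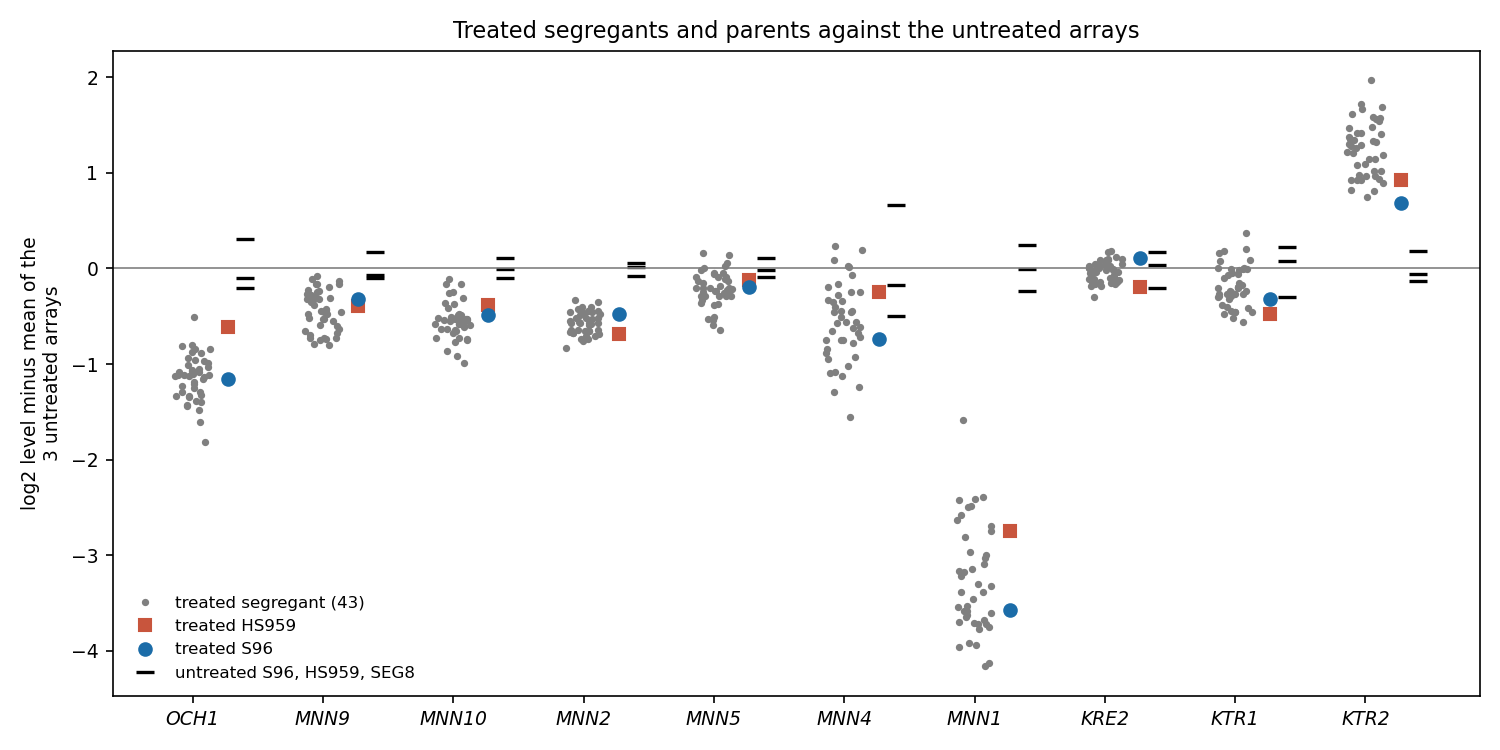
Level of each gene minus the mean of its 3 untreated arrays (log2), with 43 treated segregants in grey, the treated parents in colour and the untreated arrays as dashes on the right of each column. For MNN1, MNN2, MNN10 and OCH1 every grey point lies below the dashes, and for KTR2 above. The highest grey point of MNN1 is SEG35.

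None of the 10 genes varied among the segregants past the threshold, where 31.1% of all tested genes did. That test was a one-sided F test that set the variance over 43 segregants against the residual variance, as moderated by limma, of the fit on 6 arrays, and 2 genes, MNN1 and MNN4, had an unadjusted p under 0.05. With 1 array per strain and condition, that residual holds noise together with any strain difference in the response to alpha factor. The SD of MNN1 was 0.56, against a residual SD of 0.19 (adjusted p = 0.0502 over all genes with the limma noise estimate). Without SEG35 the SD of MNN1 was 0.51 (adjusted p = 0.0644 in the same test). MNN1 passed with median scaling (adjusted p = 0.0468), with normexp background (adjusted p = 0.0413) and with noise estimated without HS959 (adjusted p = 0.0454). Other alternatives moved MNN1 away from the threshold in this test. Quantile scaling gave an adjusted p of 0.0617. Dropping SEG8 from the noise estimate gave 0.0990, and dropping S96 from it gave 0.0781. The SD of MNN4 was 0.41 against 0.18 (adjusted p = 0.0862). The other 8 genes had SDs between 0.11 for KRE2 and 0.29 for KTR2. With slide means removed 0 of the 10 genes passed, against 18.1% of all genes.

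Each slide carried 8 arrays, and levels of 48.1% of all tested genes differed between slides among the segregants. Of the 10 genes 3 did, MNN10 (adjusted p = 2.92e-06 in limma), KTR1 (adjusted p = 0.000458 in limma) and KTR2 (adjusted p = 0.00895 in limma). Within slides the SD was 0.12 for MNN10, against 0.19 over all segregants, 0.16 for KTR1, against 0.22, and 0.24 for KTR2, against 0.29.

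In the pathway lists, 3 of 15 relatives (MNT3, MNT4 and MNN14), 2 of 10 donor genes (VRG4 and PMI40), 6 of 30 endoplasmic reticulum genes, 0 of 7 O-mannosyltransferases and 3 of 12 retention genes (COG7, COG8 and VPS74) varied among the segregants, where 31.1% of all tested genes did. With slide means removed the counts were 1 (MNT4), 0, 3 (ALG11, MNS1 and ROT2), 0 and 1 (COG8) in the same order, against 18.1% of all genes. Those not named above were picked out after their values were seen. ROT2 had the highest SD of the 30, 0.63 (adjusted p = 0.0201 with the limma noise estimate).

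The mean of the segregants did not differ from that of the treated parents past the threshold for any of the 10 genes, in a limma fit of 45 arrays that called 0.0321% of all genes. KTR2 was 0.45 higher in segregants (unadjusted p = 0.0332 and adjusted p = 0.771 in limma), and 0.32 higher with slide as a term. KTR1 was 0.22 higher, and 0.01 higher with slide as a term. OCH1 was 0.26 lower, and 0.33 lower with slide as a term. Against HS959 alone OCH1 was 0.53 lower in segregants, and against S96 alone 0.01 higher, with 24 of 43 segregants between the parents. For KTR2 38 of 43 segregants lay above both parents and for KTR1 33 did, both of them genes that differed between slides. For MNN10, which also differed between slides, 31 lay below both parents, and for KRE2 39 lay between them. Both parents shared 1 slide, so parent and slide are partly confounded.

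Correlations between the 10 genes over the 43 segregants were computed for 45 pairs, with 100000 permutations and adjustment over the pairs. KTR1 and KTR2 had the highest value, with r = 0.58 (permutation p = 0.0001, adjusted p = 0.0045) and rho = 0.55 (permutation p = 0.00021, adjusted p = 0.00945). Without the 2 segregants farthest from the median of KTR1, r was 0.51 (adjusted p = 0.0158). With slide means removed r was 0.39 and no longer passed (adjusted p = 0.0646), and both genes differed between slides. MNN10 and KTR1 had r = -0.47 (permutation p = 0.00116, adjusted p = 0.0261) and rho = -0.47 (permutation p = 0.00147, adjusted p = 0.0221). That value was -0.38 without the 2 farthest segregants (adjusted p = 0.150) and -0.32 within slides (adjusted p = 0.136). The sign was kept in both, and neither value passed. Leaving out the extremes of 1 gene narrows its range, which can by itself bring r down.

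MNN5 and KTR2 had r = -0.45 (permutation p = 0.00237, adjusted p = 0.0356) and rho = -0.48 (permutation p = 0.00111, adjusted p = 0.0221). The sign was the same in 5 of 5 slides with enough segregants, and with slide means removed r was -0.53 (adjusted p = 0.00855). Without the 2 segregants farthest from the median of MNN5 r was -0.37 and no longer passed (adjusted p = 0.150). This was the 1 pair called both with and without slide means. With slide means removed 4 others passed. They were OCH1 with KTR1 (r = 0.62 within slides, adjusted p = 0.0018), MNN1 with MNN4 (0.45, adjusted p = 0.0266), MNN5 with MNN10 (0.45, adjusted p = 0.0266) and MNN1 with OCH1 (-0.44, adjusted p = 0.0319). Over all segregants those 4 had r of 0.42, 0.37, 0.26 and -0.42, with adjusted p between 0.0523 and 0.312. Levels are scaled to 1 percentile per array, which all genes of an array share.

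**Figure D5:**
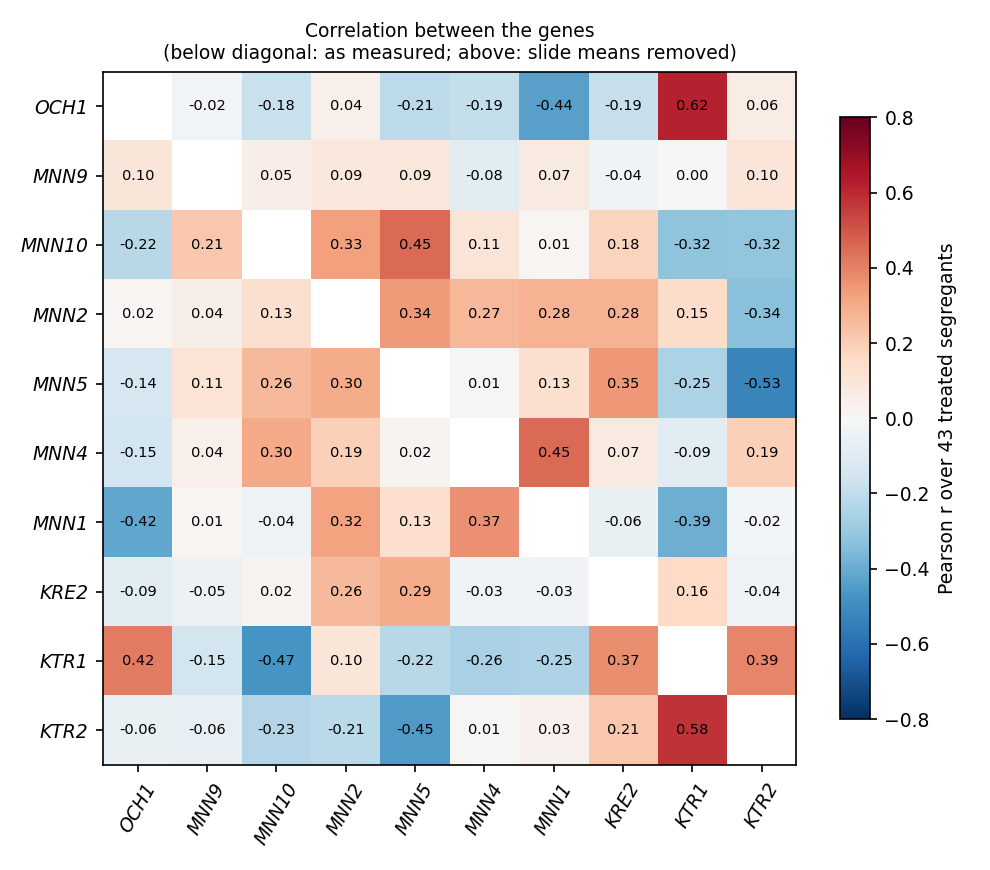
Pearson r between the 10 genes over 43 treated segregants, as measured below the diagonal and with slide means removed above it. KTR1 and KTR2 have the highest value below the diagonal, 0.58, and OCH1 and KTR1 the highest above it, 0.62.

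Each gene was also set against the mean level of the G1/S list and of the pheromone-induced list over the segregants, 20 relations in all. MNN10 with the G1/S list was the 1 that passed (r = 0.57, permutation p = 0.00012, adjusted p = 0.0024). Its rho of 0.42 did not pass (adjusted p = 0.118), r was 0.45 without the 2 farthest segregants (adjusted p = 0.0692), and r within slides was 0.33 (adjusted p = 0.214). With quantile scaling it was 0.22 (adjusted p = 0.373). MNN1 had r = 0.17 with the G1/S list (permutation p = 0.27, adjusted p = 0.676), 0.37 within slides (adjusted p = 0.214) and 0.50 with quantile scaling (adjusted p = 0.0124). With the pheromone-induced list MNN1 had r = -0.32 (permutation p = 0.0409, adjusted p = 0.19).

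The genes of the array whose levels followed each of the 10 most closely over the 43 segregants are given as a description, by Pearson r. For MNN1 they were ERG11 (0.72), YEH1 (0.72) and CYB5 (0.66). ERG11 encodes the lanosterol demethylase, YEH1 a steryl ester hydrolase and CYB5 cytochrome b5. With alpha factor ERG11 fell by 0.71 (adjusted p = 0.0106 in limma), YEH1 by 1.17 (adjusted p = 0.00401) and CYB5 by 0.88 (adjusted p = 0.00701). For MNN4 they were SNL1 (0.60), RRT14 (0.56) and SME1 (0.54), and for MNN5 KEL3, SUP35 and ELP3 (all 0.72). For OCH1 they were RRN10 (0.72), SMK1 (0.70) and SMP3 (0.69).

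MNN2 and KRE2 each had a KTR family gene among their 3. For MNN2 they were HAA1 (0.66), DIG1 (0.62) and KTR4 (0.61), and for KRE2 PGA3 (0.72), KTR3 (0.70) and YML116W-A (0.69). For KTR1 they were VAC7 (0.83), PTC3 (0.83) and GDH2 (0.81), for KTR2 PCA1 (0.78), MRX1 (0.71) and SMC2 (0.70), and for MNN10 CDC34 (0.86), CTK1 (0.84) and SAS3 (0.84). With slide means removed the 9 values of KTR1, KTR2 and MNN10 were 0.48 to 0.77, and these are the 3 genes that differed between slides.

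For MNN9 the 3 genes were CWC27 (0.72), LGE1 (0.68) and GRX5 (0.63), all on chromosome XVI like MNN9 itself, with 13, 4 and 8 genes between. Of the 30 genes listed for the 10, 5 lay on the chromosome of their partner and 3 within 15 genes, the 3 of MNN9. Among the 10 genes that flank MNN9, 5 on each side, the median r was 0.24 and 3 exceeded 0.5, against a median r of 0.04 with all genes. For the other 9 genes the flanking median lay between -0.29 and 0.06, with 0 to 2 of 10 above 0.5.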

How the data were processed

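The deposited scanner files hold the intensity of each spot; per the file headers it is background-subtracted Cy3 brightness from Agilent Feature Extraction 10.5.1.1 on design 016322, while the submitters' processing notes name version 9.1. Per the file headers, other deposited columns are 0 or 1 flags that mark outlying or saturated spots and those well above background. The authors' series matrix equals the scanner values in 626304 of 626304 cells (relative tolerance 1e-06). There was no normalization between arrays in these values.

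The log2 intensity minus the array's 75th percentile was averaged over 2 spots, leaving out outliers; 5 values with no spot left used both spots. Tested genes (6252 and 6230) had to be well above background on 2 of the 6 arrays, or on 22 of the 43 segregant arrays. Alpha factor (with strain as a term) and HS959 minus S96 were fitted with limma 3.58.1 in R 4.3.3 on 6 arrays, two-sided, with 2 degrees of freedom left and 2.63 added by limma's prior; the labels pair arrays by strain, and changes of the strains correlated across genes at 0.80 to 0.85. Segregants were compared as the text states. Benjamini-Hochberg adjustment was over all tested genes in the gene-wise tests, and over the 45 pairs or 20 relations in the correlations, with a threshold of 0.05. Correlations used numpy 2.4.6 and pandas 2.3.3 in Python 3.11.15, and figures matplotlib 3.10.9.

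Per the file headers, probe annotation follows sacCer1. Assembly R64 matched 5756 of 6256 names and was used for names and gene order only, so no coordinates are given. The members and lists were chosen with earlier results of these data known. Named were all 10 genes, up to 4 called genes of each glycosylation list with the largest change and with the largest parental difference, the 3 genes most like each of the 10, and FUS1, FUS2, CLN1 and CLN2. Alternatives were quantile scaling, median scaling, normexp (offset 50) on the median spot intensity in place of the planned mean, all spots kept, no dim-probe filter, no strain term, each strain left out, and slide. Tests were tried on simulated data.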

Additional observations from a re-analysis of the deposited data

Results flagged for a closer look

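The difference between alpha factor and none in KRE2 did not have 1 sign over the strains, at -0.0639 in S96, 0.0176 in HS959 and 0.0324 in SEG8 on the log2 scale, and KRE2 did not pass the test (adjusted p = 0.965 in limma). Each strain had 1 array per condition, so the difference between strains was not tested.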

How the results depend on the processing

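Of 90 alternative values of the change with alpha factor, 75 kept their side of the threshold and 15 lost the call. None changed direction past the threshold. The change of KRE2, -0.005 in the main fit, turned positive in some alternatives and passed in none. It was 0.015 with median scaling, 0.005 with normexp background and 0.025 without S96. Without the replicate block (strain left out) 657 genes and 4 of the 10 were called, against 2224 and 7 in the paired fit. Leaving out 1 strain gave 586 to 1617 genes and 3 to 5 of the 10. Between parents, quantile and median scaling each called 2 of the 10, and leaving out SEG8 called 0 (and 729 genes, against 1292). Among segregants, median scaling, normexp background and noise without HS959 each called 1 of the 10. Quantile scaling called 0, as did noise estimates that dropped SEG8 or dropped S96. The variance test called 1937 genes, 1129 with slide means removed, 729 with noise without HS959 and 401 with noise without SEG8. The comparison of segregant and parental means called 2 genes, 1 with normexp background, 0 with slide as a term, and 0 to 7 with 1 parent left out. Of the pairs 3 passed, 5 with slide means removed and 5 with quantile scaling. Of the relations with list means 1 passed, 0 with slide means removed and 0 without the 2 farthest segregants. With quantile scaling 1 passed, that of MNN1 with the G1/S list, and none was shared with the main scaling. The causes were not tested. The alternative without SEG35 was chosen after seeing the data and called 0 of the 10. All 10 genes were well above background on 48 arrays, and each strain had 1 array per condition.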
